A study of Macaca fascicularis with 2 samples.

Results

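Interferon-stimulated genes were followed here as a group of 39 listed members, chosen by name but with earlier results of these data known. Of these, 36 were among the 29324 genes of the deposited list. The symbols IFIT5, USP18 and SAMD9L found no row and were not analysed here. The cells were double positive (DP) T cells, which carry both CD4 and CD8, out of the blood of 1 untreated cynomolgus monkey (Macaca fascicularis) aged 10 years. Fresh blood mononuclear cells were first enriched for CD4 on beads that could be released, and a CD8 bead step then picked the DP cells out of that fraction. They were read as 1 gene expression library, in which each UMI (unique molecular identifier) stands for 1 captured RNA molecule, and 1 library of CD4 and CD8 antibody tags on the same cells. Both libraries came from 1 animal, so no value has a replicate, no test was made, and every interval given is a 95% interval that covers counting error only.

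Type I and type III interferons act through receptors that carry the kinases JAK1 and TYK2, which switch on a factor that holds STAT2 and IRF9. That factor enters the nucleus and turns on a large number of genes, among them sensors of viral RNA, enzymes that block viral translation and proteins that hold back virus particles. Many of these genes are kept at a low basal level in resting T cells, and some are also expressed in one lineage without interferon.

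After the filter 8830 cells of 8953 barcodes were kept, with 31677119 gene UMIs and a median of 3145 per cell. They were clustered with the 36 members left out of the clustered genes, so that member levels took no part in the classes, and clusters were named from marker genes. The T cell genes CD3D, CD3E and CD3G had a UMI in 90.9%, 96.3% and 79.0% of the kept cells, while CD4 and CD8A RNA were seen in 28.4% of cells each. FOXP3 stood at 284 CPM (counts per 1000000 gene UMIs) in the Treg-like class. Of the kept cells 162 were B-like with MS4A1, a B cell surface gene, at 1531 CPM and 19 were monocyte-like. The naive-like class held 5210 cells in 3 clusters. The largest of these had HBB as its leading gene, but 4447 of its 4453 HBB UMIs lay in 1 cell. The helper-like class joined a Th2-like, a Th17-like and a Tfh-like cluster, and the Th2-like cluster had the Th17 gene CCR6 and none of its own markers among its 10 leading genes. Another 117 shallow cells stayed unnamed.

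The members gave 39139 UMIs in the kept cells, which was 0.124% of all gene UMIs. Since UMIs from 5′ ends count molecules and not bases, levels can be compared between genes without dividing by length. The median cell held 3 member UMIs, 502 cells (5.69%) held none, and the highest cell held 161. No class was taken to lack the members as a group, so no share of cells due to free RNA was set for them. Single members were at 0 UMIs in whole classes, as RSAD2 in CD4 CTL-like cells and IFI44 and CMPK2 in B-like cells.

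A few members carried most of these molecules. The 5 most abundant made over 50% of all member UMIs and the 7 most abundant made 68.7%. ISG20, an exonuclease that degrades RNA, stood at 199 CPM (194 to 204) and BST2, a surface protein that tethers budding virus, at 173 CPM (169 to 178). IFI6, a small protein of the endoplasmic reticulum, followed at 119 CPM, with IFI16, a DNA sensor, at 117 CPM and IRF9, the DNA-binding subunit of the interferon factor, at 101 CPM. TRIM22, a ubiquitin ligase, stood at 91.6 CPM and IFI35 at 47.7 CPM.

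The genes that are most often read as signs of an interferon response were rare. ISG15, a ubiquitin-like modifier, stood at 15.0 CPM and was seen in 4.04% of cells. MX1, a dynamin-like GTPase that traps viral nucleocapsids, stood at 9.19 CPM in 2.15% of cells. IFIT3 was at 7.80 CPM, OAS1 at 1.89 CPM, RSAD2 (viperin) at 1.2 CPM and IFI44L at 0.347 CPM, from 11 UMIs. In all, 8 members had under 200 UMIs over all kept cells. A low mean hid single cells with many copies, since 1 Tfh-like cell held 23 UMIs of ISG15, 21 of MX1 and 28 of IFI6, the most of each in any cell. Over cells thinned to 2200 gene UMIs, the variance of the count divided by its mean, which is 1 for a Poisson count, was 2.17 for MX1, 1.81 for ISG15, 1.72 for IFI6 and 1.46 for MX2. For the other 32 members it lay between 0.973 and 1.35.

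The question of the first comparison was whether the summed level differed between the classes of T cells in this blood. The level was 9.64 per 10000 gene UMIs in naive-like cells (9.49 to 9.80), the lowest of the 9 named T cell classes. CD4 CTL-like cells, which carry GZMB and PRF1 (granzyme B and perforin), had the highest at 18.7 (18.2 to 19.2). Tfh-like cells stood at 16.8 (16.0 to 17.7), innate-like cells at 16.7 (15.5 to 18.0), Eomes Tr1-like cells at 16.5 (15.7 to 17.3) and CD8 CTL-like cells at 15.9 (15.4 to 16.4). The intervals of these 4 overlapped, so their order was not resolved at this depth. Without the high-scoring cells described below, Tfh-like cells stood at 13.1 (12.3 to 13.9), innate-like at 16.3 (15.1 to 17.6), Eomes Tr1-like at 15.1 (14.4 to 15.9), CD8 CTL-like at 15.4 (14.9 to 16.0), CD4 CTL-like at 18.1 (17.6 to 18.6) and naive-like cells at 9.40 (9.25 to 9.55), so the high value of the Tfh-like class rested on 7 cells. Treg-like cells at 12.8 (12.4 to 13.3), Th17-like cells at 12.7 (12.4 to 13.1) and Th2-like cells at 11.7 (11 to 12.5) lay between them and the naive-like class, and the intervals of these 3 overlapped too.

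**Figure D1:**
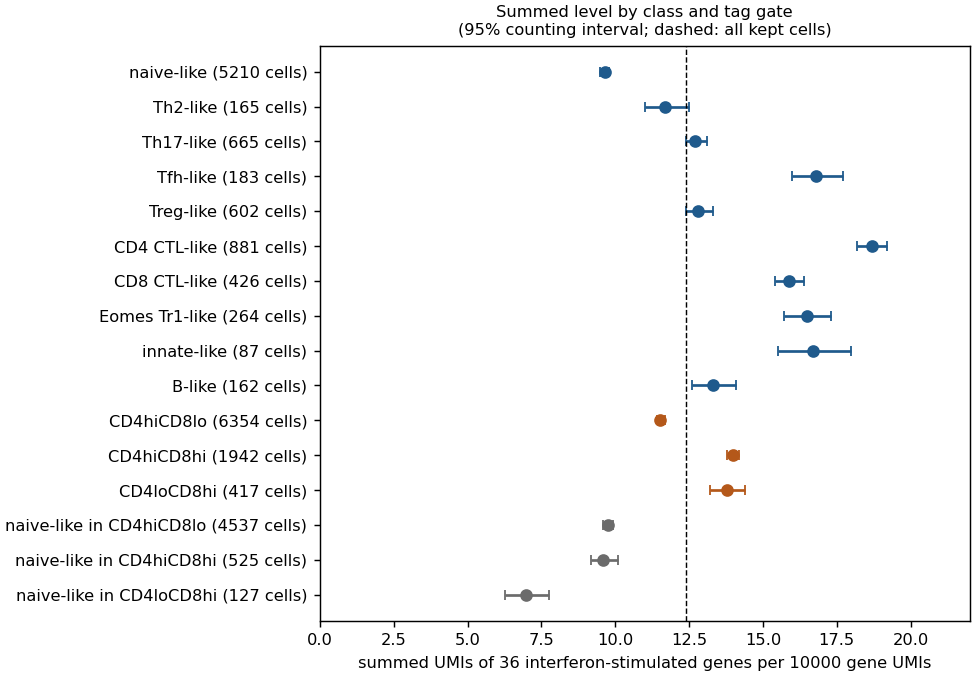
Summed UMIs of the 36 members per 10000 gene UMIs (x axis) in each named T cell class and B-like cells (blue), in 3 tag gates (orange) and in the naive-like cells of those gates (grey), with 95% counting intervals as bars and the value of all kept cells, 12.4, as a dashed line. Naive-like cells lie at 9.64 and CD4 CTL-like cells at 18.7, and the CD8hi gates, which are above CD4hiCD8lo over all cells, are at or below it among naive-like cells.

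Within a class the level was not uniform. The 4 Treg-like clusters ran from 9.12 (8.38 to 9.90) in 188 cells to 20.2 (18.7 to 21.7) in 65 cells, a wider spread than that between the classes of helper cells. The 3 naive-like clusters stood at 9.18, 10.5 and 7.44. The 382 cells with a UMI of FOXP3, the factor that defines regulatory T cells, outside B-like and monocyte-like clusters stood at 13.1 (12.6 to 13.7), next to the 12.8 of the Treg-like clusters. B-like cells stood at 13.3 (12.6 to 14.1), and the 115 of them with at most 1 UMI of the 4 T cell genes CD3D, CD3E, CD3G and TRAC stood at 13.5 (12.5 to 14.5). Median depth moved with class as well, from 2857 gene UMIs in naive-like to 4654 in helper-like cells. Its part in these levels was not tested.

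Relative to naive-like cells, the summed level in CD4 CTL-like cells was higher by 0.96 on the log2 scale (0.91 to 1.0), or 1.94-fold. Of 30 members with at least 50 UMIs over both groups, 22 were at least 1.5-fold higher and 2 at least 1.5-fold lower, where the same held for 28.4% and 18.2% of all genes with that many UMIs. MX2 and XAF1 had 26 and 43 UMIs in naive-like cells. They reached 50 only with the 256 and 24 of CD4 CTL-like cells, and both are among the 22. Against naive-like cells, MX2, XAF1 and HERC5 (35 UMIs there) passed only in this way in other classes too. The median log2 ratio was 0.91 over the members and 0.18 over all genes. Without the high-scoring cells the count was again 22 higher and 2 lower.

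MX2, the nuclear relative of MX1 that blocks entry of retroviruses to the nucleus, had the widest range over the 9 classes, 48.7-fold, among members with a UMI in every class. Its level was 79.6 CPM in CD4 CTL-like, 54.9 in Eomes Tr1-like, 41.6 in Th17-like, 41.5 in CD8 CTL-like, 33.2 in Th2-like, 29.9 in Tfh-like, 19.7 in innate-like, 8.45 in Treg-like and 1.63 in naive-like cells, which rested there on 26 UMIs. The log2 ratio of CD4 CTL-like to naive-like cells was 5.61 (5.02 to 6.25). Leaving out the high-scoring cells lowered the naive-like level to 0.631 CPM, from 10 UMIs, and raised the ratio to 6.92 (6.02 to 8.0). Its relative MX1 differed less, at 7.78 CPM in CD4 CTL-like and 4.15 CPM in naive-like cells, a ratio of 0.91 (0.18 to 1.59), and at 6.69 and 2.4 CPM without those cells. Reads of MX1 and MX2, and of members of the OAS and IFIT families, may be shared to some degree between related sequences, and how they were divided was not checked here.

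Among the other members, DDX60, a helicase that assists RNA sensing, was higher in CD4 CTL-like than in naive-like cells by 2.28 (1.77 to 2.80) and EPSTI1 by 1.91 (1.5 to 2.31). The abundant BST2 stood at 335 against 115 CPM, a log2 ratio of 1.55 (1.44 to 1.66), and TRIM22 at 156 against 71.1 CPM, a ratio of 1.13 (0.98 to 1.28). In the other direction HERC6, a relative of the ISG15 ligase HERC5, stood at 3.73 against 11.9 CPM, a log2 ratio of -1.68 (-2.66 to -0.84), and had in CD4 CTL-like cells its lowest level of the 9 classes. CMPK2, a mitochondrial nucleotide kinase, had 5 UMIs in CD4 CTL-like cells and a ratio of -1.15 (-2.83 to 0.16). ISG20, the most abundant member, was close to even at 0.08 (-0.05 to 0.21).

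By role, the RNA-binding IFIT2 and IFIT3 and the synthetase OAS2, which makes the activator of RNase L, were higher in CD4 CTL-like cells by 1.69, 1.83 and 1.78. Of the same families, IFIT1 and OAS3 differed less, at 24.0 against 18.9 CPM and 29.2 against 17.5 CPM. EIF2AK2 (PKR), the kinase that stops translation, differed by 0.14 (-0.22 to 0.49). The sensors DDX58 (RIG-I), IFIH1 (MDA5) and IFI16 were higher by 1.31, 0.89 and 0.87. Among the factors IRF9 was higher by 0.81 (0.66 to 0.96), while IRF7 and STAT2 differed by 0.36 and 0.16 with intervals that crossed 0. The ADP-ribosylation genes DTX3L, PARP14 and PARP9 were higher by 1.11, 0.92 and 0.72.

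CD8 CTL-like cells stood 0.72 (0.67 to 0.77) above naive-like cells on the log2 scale. Here 14 of 30 members were at least 1.5-fold higher and 1 was at least 1.5-fold lower, beside 21.4% and 13.4% of all genes. The members with the largest ratios were MX2 at 4.67, DDX60 at 2.05 and IFIT3 at 1.98, and those with the lowest were IRF7 at -0.60, HERC6 at -0.36 and IFIH1 at -0.35, each of these 3 with an interval that crossed 0.

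Set directly against CD4 CTL-like cells, CD8 CTL-like cells stood lower by 0.24 (log2 ratio -0.24, -0.30 to -0.17). None of 26 members was at least 1.5-fold higher and 6 were at least 1.5-fold lower, beside 4.67% and 7.29% of all genes. The 3 lowest were IFIH1 at -1.24, IRF7 at -0.95 and MX2 at -0.94. The 3 highest were EIF2AK2 at 0.27, IFIT3 at 0.15 and IFI6 at 0.13, each with an interval that crossed 0.

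Eomes Tr1-like cells, marked by EOMES and GZMK, stood 0.78 (0.70 to 0.85) above naive-like cells. Of 30 members 16 were at least 1.5-fold higher and 1 lower, beside 21.6% and 15.9% of all genes. MX2 at 5.07, ISG15 at 2.64 and IFIT3 at 2.36 led, and ISG15 stood at 49.1 CPM against 7.86 CPM. CMPK2 at -1.82 (-7.15 to 0.72), on 1 UMI, IFIH1 at -0.17 and OAS3 at -0.16 were lowest, and these intervals crossed 0 as well. Without the high-scoring cells ISG15 stood at 34.8 against 5.99 CPM, and 13 of 29 members were at least 1.5-fold higher.

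Innate-like cells were a small class of 87 cells. It joined a cluster of 55 cells, with FCER1G and TYROBP among its leading genes, and another of 32 cells, with TRAV10 and ZBTB16 among them. These clusters stood at 17.4 and 15.4 per 10000. The class as a whole stood 0.79 (0.68 to 0.90) above naive-like cells. Of 28 members 13 were at least 1.5-fold higher and 3 lower, beside 24.0% and 18.7% of all genes. BST2 reached 465 CPM there, its highest level in any of the 9 classes, a log2 ratio of 2.02 (1.80 to 2.24). IFIT3 at 2.10 and IFIT2 at 2.01 were of like size but rested on 7 and 15 UMIs. CMPK2 had no UMI in these cells against 55 in naive-like cells, which leaves an upper limit of 1.44 for its log2 ratio, and HERC6 at -0.70 and PARP9 at -0.68 were the next lowest, with intervals that crossed 0.

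Helper-like cells stood 0.46 (0.42 to 0.50) above naive-like cells, with 13 of 31 members at least 1.5-fold higher and 0 at least 1.5-fold lower, beside 15.9% and 10.0% of all genes. MX2 at 4.55, MX1 at 2.39 and EPSTI1 at 1.49 led. CMPK2 at -0.54 and IFIT1 at -0.30 were lowest and EIF2AK2 was next at -0.01, all with intervals that crossed 0. In this class a few cells decided several values. Tfh-like cells held the highest level of 9 members, and of 3 members once the high-scoring cells were left out. ISG15 in helper-like cells went from 21.1 to 10.6 CPM without them and its ratio to naive-like cells from 1.43 to 0.83, while the ratio of MX1 was 2.26. The members at least 1.5-fold higher were then 11 of 31, and 1 was lower.

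Treg-like cells stood 0.41 (0.35 to 0.47) above naive-like cells, with 5 of 29 members were at least 1.5-fold higher and 2 lower, beside 8.54% and 11.3% of all genes. Without the high-scoring cells these were 5 and 0 of 27. EPSTI1 led at 1.53, with ISG15 at 1.03 and OAS2 at 0.93. The summed ratio was 0.29 (0.22 to 0.35) without ISG20, which stood at 321 CPM, its highest level in any of the 9 classes, against 177 CPM in naive-like cells, a ratio of 0.86 (0.74 to 0.98). CMPK2 at -0.64, IFIT1 at -0.60 (-1.22 to -0.04) and the RNA-binding IFIT2 and IFIT3, both at -0.37, were lowest. The median log2 ratio over members was 0.10.

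B-like cells stood 0.47 (0.38 to 0.55) above naive-like cells. Of 31 members 12 were at least 1.5-fold higher and 2 lower, beside 22.2% and 19.4% of all genes. MX2 at 5.02, HERC5 at 2.77 and MX1 at 2.75 led, and HERC5, the ligase that attaches ISG15, reached 15.0 CPM against 2.20 CPM. CMPK2 had no UMI in B-like cells, with an upper limit of 0.14, and PARP9 at -0.81 and EIF2AK2 at -0.71 were lowest otherwise. IRF7 was higher at 34.9 against 14.1 CPM. In the 19 monocyte-like cells the summed level was 19.7 (17.3 to 22.3), with MX2 at 150.4 CPM and IFIT2 at 111 CPM from 19 and 14 UMIs.

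**Figure D2:**
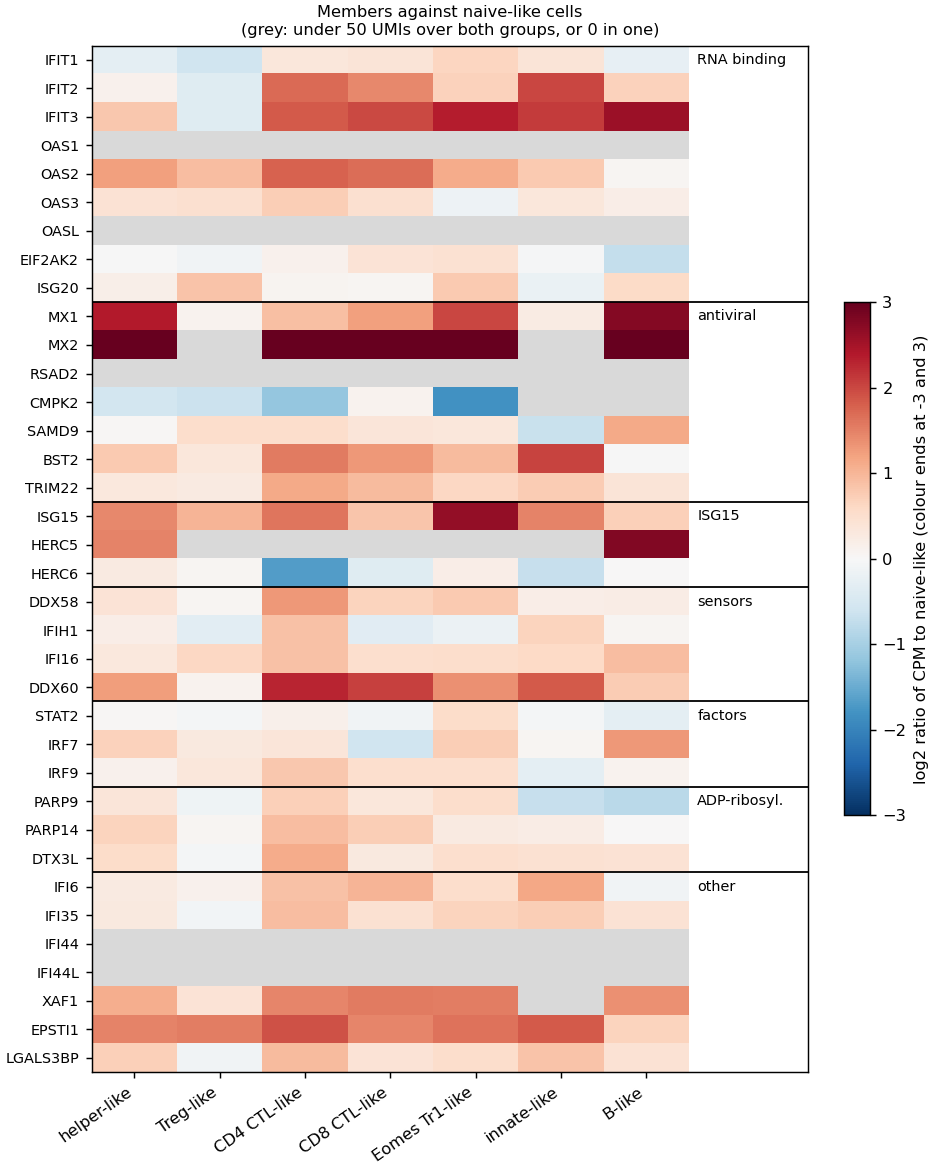
Log2 ratio of each member's CPM (rows, by role) to its CPM in naive-like cells, for 7 classes (columns), from blue (lower) to red (higher), with grey where a member had under 50 UMIs over both groups or none in one. The colour ends at -3 and 3. MX2 is past the red end in 5 columns, up to 5.61 in CD4 CTL-like cells, and the Treg-like column is the palest, with a median of 0.10.

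Over the 9 classes 12 members had their highest level in CD4 CTL-like cells and 9 in Tfh-like cells, and naive-like cells held the highest level of none and the lowest of 10. Without the high-scoring cells these were 14, 3, 0 and 11. The same counts were not made over all genes, so they are not read as a trait of the members. The classes also differed in size, from 406487 gene UMIs in innate-like to 15902348 in naive-like cells. Many of these ranks were not resolved, as for OAS3 with 30.6 CPM (19.4 to 45.8) in Th2-like and 29.2 CPM (23.6 to 35.8) in CD4 CTL-like cells. HERC6 stood at 21.3 CPM (12.1 to 34.5) in Th2-like and 3.73 CPM (1.93 to 6.52) in CD4 CTL-like cells, opposite to the summed level.

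The tags were read next, to ask whether cells with more CD8 on the surface differed. The CD4hiCD8lo gate held 6354 cells at 11.5 per 10000 (11.4 to 11.7), the CD4hiCD8hi gate 1942 cells at 14.0 (13.8 to 14.2) and the CD4loCD8hi gate 417 cells at 13.8 (13.2 to 14.4). Against CD4hiCD8lo the CD4hiCD8hi gate was higher by 0.28 (0.25 to 0.31), with 9 of 33 members at least 1.5-fold higher and 0 lower, beside 10.1% and 4.87% of all genes. IFI44 at 1.61, MX2 at 1.53 and OASL at 1.28 led. IFI44 is among the 9, but it had 31 UMIs in CD4hiCD8lo. It reached the UMI minimum for single genes only with the 42 of CD4hiCD8hi. HERC6 at -0.29, IRF7 at -0.22 and CMPK2 at -0.16 were lowest, with intervals that crossed 0.

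The CD4loCD8hi gate was higher than CD4hiCD8lo by 0.26 (0.20 to 0.32), with 8 of 32 members at least 1.5-fold higher and 3 lower, beside 12.7% and 13.5% of all genes. DDX60 at 1.63, MX2 at 1.24 and XAF1 at 0.92 led. HERC5 at -1.31 (-4.39 to 0.60), on 2 UMIs, MX1 at -1.22 (-2.69 to -0.07) and IRF7 at -0.96 (-1.81 to -0.22) were lowest, and ISG20 stood at 147 against 200.5 CPM.

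The gates held different classes. Naive-like cells made 71.4% of CD4hiCD8lo, 27.0% of CD4hiCD8hi and 30.5% of CD4loCD8hi cells, and CD8 CTL-like cells made 46.5% of the last. Among naive-like cells alone CD4hiCD8hi against CD4hiCD8lo gave -0.02 (-0.09 to 0.05), so no difference was detectable there, with levels of 9.60 and 9.76 per 10000. In that comparison IFIH1 at 0.99 (0.30 to 1.63) was highest, followed by DDX60 at 0.68 and SAMD9 at 0.37, and MX1 at -1.11, IFIT3 at -0.67 and HERC6 at -0.56 were lowest, all but the first with intervals that crossed 0.

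CD4loCD8hi naive-like cells stood at 6.98 (6.27 to 7.75), the lowest level of all groups given here, and against CD4hiCD8lo naive-like cells gave -0.48 (-0.64 to -0.33). Of 28 members 1 was at least 1.5-fold higher and 12 lower, where 6.79% and 26.5% of all genes were. IFI6 stood at 49.4 against 98.5 CPM, a log2 ratio of -0.99 (-1.63 to -0.43), ISG20 at 101 against 179.9 CPM and IFI16 at 57.3 against 95.4 CPM. DDX60 at 1.44, SAMD9 at 0.55 and DDX58 at 0.50 were highest, with intervals that crossed 0. MX1 had 0 UMIs against 62, with an upper limit of 0.71. IRF7 at -2.90 (-8.21 to -0.41), on 1 UMI, and EIF2AK2 at -1.24, on 5, were the next lowest. The median log2 ratio was -0.49 over members and -0.23 over all genes, so genes at large were shifted the same way.

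A small set of cells with many members was then looked for. T cells were thinned to 2200 gene UMIs each, so that every score rested on the same number of UMIs, and 748 shallower cells were left out of 8649, which left 7901. The median thinned cell held 2 member UMIs, and cells above 9.41 (the median plus 5 scaled median absolute deviations) with at least 5 different members were taken as the high-scoring set. It held 74 cells, 0.937% (0.736% to 1.17%) of those thinned, with 10 to 68 member UMIs and a median of 12. The size depended on the rule, with shares of 2.05% at 4 and 0.645% at 6 deviations, 0.613% without thinning and 0.620% without ISG20. The lower edge was not a gap, since 23 cells stood at 10 just inside and 37 at 9 just outside, but 11 cells reached at least 20. The set carried 5.49% of the member UMIs, and the variance over the mean of the score was 2.16 with it and 1.26 without it.

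**Figure D3:**
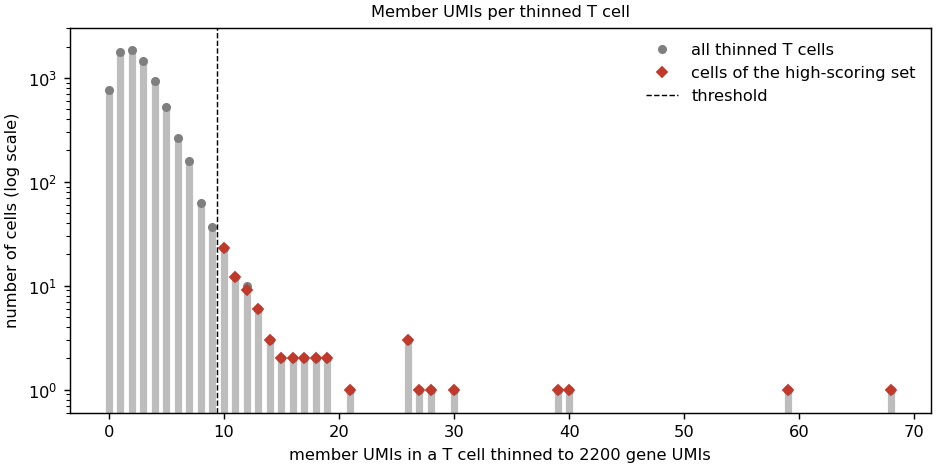
Number of thinned T cells (y axis, log scale) at each count of member UMIs (x axis, of 2200 gene UMIs per cell), with all cells as grey circles, the 74 cells of the high-scoring set as red diamonds and the threshold of 9.41 as a dashed line. Counts are highest at 2 and fall from there to about the threshold, and a thin tail of 11 cells runs from 21 to 68.

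Cells of the set were found in most classes but at different shares. Naive-like cells gave 15 of 4697 (0.319%, 0.179% to 0.526%), CD4 CTL-like cells 20 of 833 (2.40%, 1.47% to 3.68%), Eomes Tr1-like cells 9 of 247 (3.64%, 1.68% to 6.80%) and Tfh-like cells 7 of 172 (4.07%, 1.65% to 8.21%). Th17-like cells gave 8 of 653, CD8 CTL-like cells 7 of 417, Treg-like cells 5 of 576, innate-like cells 2 of 87, cycling cells 1 of 49 and Th2-like cells 0 of 164, which allows a share of up to 1.83%. Of the 11 cells with at least 20 member UMIs, 4 were naive-like, 3 Tfh-like, 2 Th17-like, 1 CD8 CTL-like and 1 Eomes Tr1-like, and none of the 833 CD4 CTL-like cells was among them. By tags 42 cells of the set were CD4hiCD8lo (0.742% of 5661), 26 CD4hiCD8hi (1.42% of 1829) and 6 CD4loCD8hi (1.52% of 394).

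The cells with the most members are described next, as a description only, since the members chose them. The naive-like cell with the highest score held 94 member UMIs of 26 members among 3183 gene UMIs, with 27 of IFI6, 10 of ISG15, 10 of MX1, 7 of ISG20 and 5 of MX2. A second naive-like cell held 91 UMIs of 30 members, led by 19 of IFI6, 8 of ISG15 and 7 of IRF7, the factor that amplifies interferon production. A Tfh-like cell held 161 UMIs of 29 members, led by 28 of IFI6, 23 of ISG15 and 21 of MX1, and another 65 UMIs of 24 members. IFI6 was the 1 member seen in all of the 20 highest cells, and the other leading members differed from cell to cell. Of these cells 20 held IFI6, 19 held ISG15, 19 ISG20, 15 MX1, 15 MX2 and 11 OASL, where 29.3%, 3.77%, 46.4%, 1.74%, 5.90% and 0.945% of the T cells outside the set, at their full depth, held these genes.

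**Figure D4:**
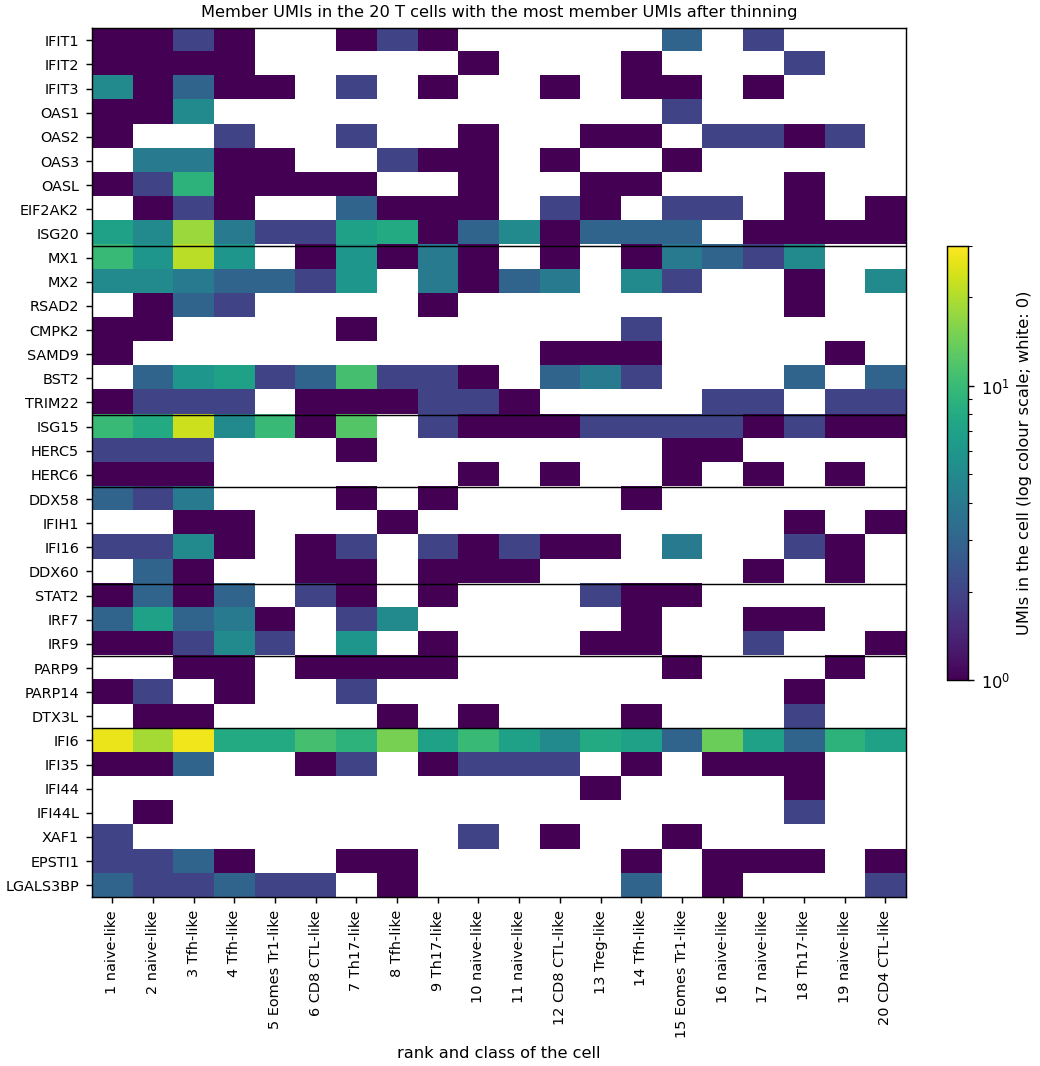
UMIs of each member (rows, by role) in the 20 T cells with the most member UMIs after thinning (columns, by rank and class), on a log colour scale from 1 (dark) to 30 (yellow), white where there was none. IFI6 is filled in all 20 columns and ISG15 in 19, and the first 4 columns hold 24 to 30 different members.

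Since the set was chosen by the summed members, each member was read in cells chosen by all the others. Of 34 members with at least 50 UMIs, 33 were at least 2-fold higher in cells high for the other members, and of all 36 it was 35. Among genes outside the members with at least 50 UMIs 8.62% were at least 2-fold higher in the set. Their share without that minimum, to set beside the 35 of 36, was not counted. The median log2 ratio was 2.33 over members and 0.08 over the other genes. With 50 UMIs asked of the other cells alone, a filter chosen after seeing the data, so that no member passed through the high cells, it was 32 of 33, beside 8.57% of other genes. MX1 stood at 285 against 5.70 CPM, a log2 ratio of 5.64 (5.25 to 6.03). OASL was higher by 5.07 (4.39 to 5.70), ISG15, at 387 against 11.7 CPM, by 5.05 (4.72 to 5.36), and OAS1 by 4.64 (3.59 to 5.58). The abundant members had smaller ratios, with 2.58-fold for ISG20 and for BST2, 2.29-fold for IRF9 and 2.07-fold for IFI16. IFI6 was both abundant and steep, at 1298 against 112 CPM, or 11.6-fold. SAMD9 was the exception at 0.65 (-0.57 to 1.64).

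By role, the RNA-binding genes ran from 1.37 for ISG20 to 5.07 for OASL, with IFIT3 at 3.95 and IFIT1 and IFIT2 at 2.08 and 1.73. HERC5 and HERC6 stood at 3.93 and 2.28. Among factors IRF7 was steepest at 3.29, above STAT2 at 1.70 and IRF9 at 1.2. The sensors DDX60 and DDX58 stood at 3.22 and 2.38, above IFIH1 at 1.89 and IFI16 at 1.05. PARP9, DTX3L and PARP14 stood at 1.87, 1.75 and 1.30. Of the 34, 15 were at least 8-fold higher, and the share of genes outside the members past 8-fold was not counted.

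When the members were divided into 2 lists by their place in the full list, 23 cells were high for the first list. The second list, which did not choose them, stood there at 40.5 per 10000 (36.4 to 45.0) against 7.83 (7.73 to 7.93) in the other cells, and was above the median of the other cells in 21 of the 23. The reverse choice also gave 23 cells, in which the first list stood at 51.9 against 4.25, or 12.2-fold, and was above that median in 22 of 23.

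The same reading gave different results by class. Among naive-like cells 25 of 27 members were at least 2-fold higher in cells high for the others, beside 16.2% of other genes, with a median log2 ratio of 2.96. With 50 UMIs asked of the other cells alone it was 24 of 26, beside 16.1%, with a median of 2.94. MX1, which is not among those 26, stood there at 565 against 2.69 CPM, with 24 of its 64 UMIs in 14 of 4697 cells, and ISG15 at 666 against 5.92 CPM. A few cells weighed heavily here. The 15 naive-like cells held 438 member UMIs, of which the 2 highest cells held 94 and 91. These 2 cells also held 10 and 8 of the 30 ISG15 UMIs, and the reading was not made without them. Among helper-like cells 25 of 26 members were at least 2-fold higher, beside 11.1% of other genes, with a median of 2.51, and 22 of 23 with 50 UMIs in the other cells alone, beside 11%. The 15 helper-like cells held 653 member UMIs, 161 of them in 1 Tfh-like cell. BST2 at 0.65 (-0.56 to 1.63) was an exception in naive-like cells, and IFIH1 had 0 UMIs in the 15 cells, with an upper limit of 3.44. Some members counted as 2-fold higher had intervals that crossed 0. In naive-like cells these were SAMD9 on 2 UMIs (-1.58 to 3.34), PARP9 on 3 (-0.16 to 3.69) and PARP14 on 3 (-0.31 to 3.55). In helper-like cells it was HERC6 on 3 UMIs (-0.86 to 3.06).

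Among CD4 CTL-like cells 5 of 24 members were at least 2-fold higher, beside 6.27% of other genes, and the median was 0.43. It was 5 of 24 too with 50 UMIs in the other cells alone, beside 5.87%. The 5 were ISG15 at 2.07 (0.71 to 3.19), EIF2AK2 at 1.78 (0.29 to 2.97), IRF7 at 1.70 (-0.23 to 3.14), MX2 at 1.31 (0.34 to 2.14) and OAS2 at 1.28 (-0.38 to 2.56). The 20 cells of the set in this class held at most 15 member UMIs after thinning, with a median of 11 where the class had a median of 4. The 15 naive-like cells reached 68, with a median of 13 where the class had 2. The difference between the classes was not tested. With a threshold set within each class instead, a choice made after seeing these values, 5 CD4 CTL-like cells (0.60%), 6 Eomes Tr1-like (2.43%), 5 Tfh-like (2.91%), 4 CD8 CTL-like and 0 innate-like cells were left, and the 15 naive-like, 8 Th17-like and 5 Treg-like cells stayed.

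**Figure D5:**
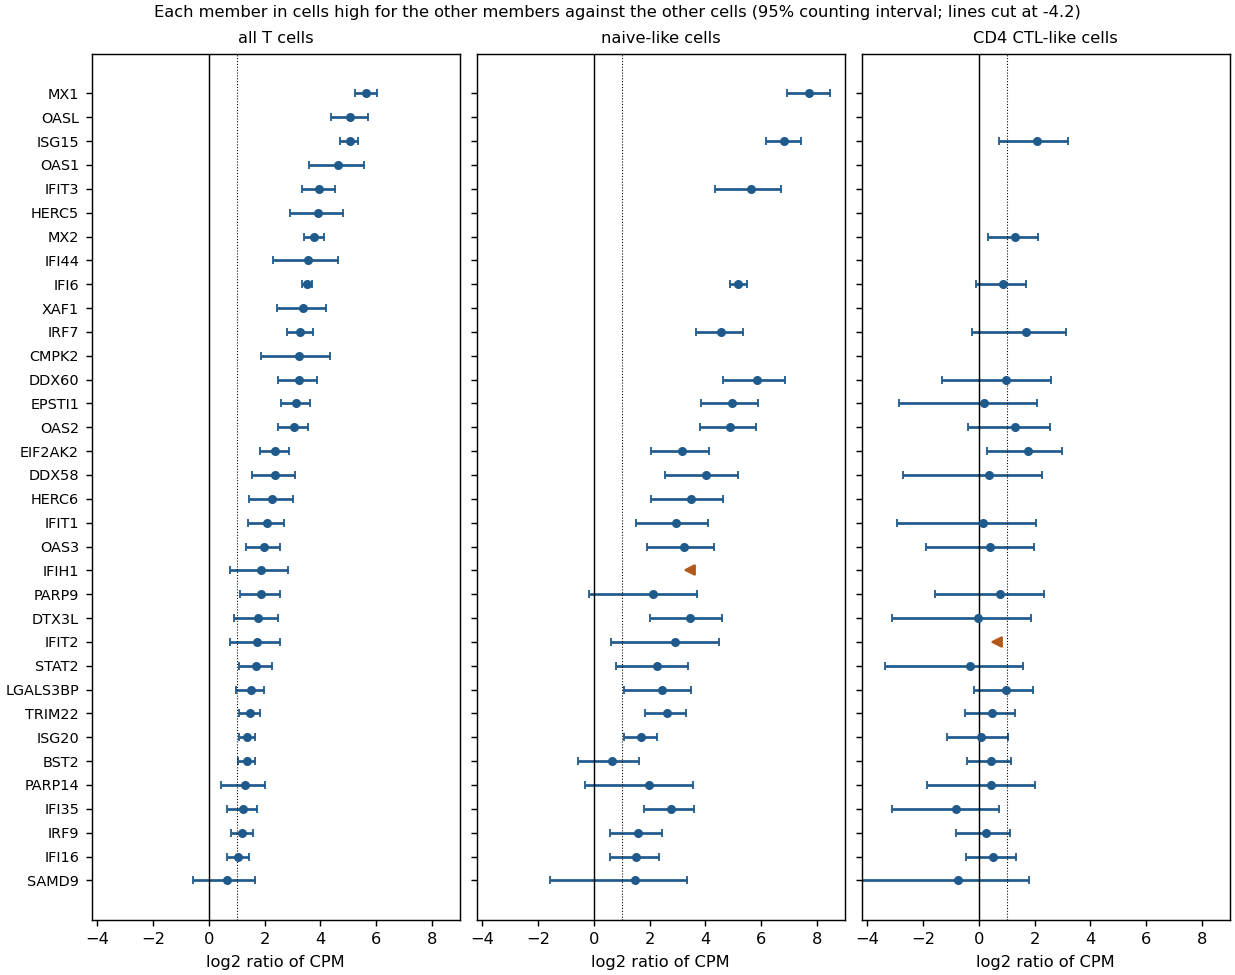
Log2 ratio of each member's CPM in cells high for the other members to that in the other cells (x axis), with 95% counting intervals, in all thinned T cells, naive-like cells and CD4 CTL-like cells, for members with at least 50 UMIs. Solid and dotted lines mark 0 and 2-fold, and orange arrows give the upper limit where the high cells held no UMI. In naive-like cells 25 of 27 members lie at or past 2-fold, in CD4 CTL-like cells 5 of 24.

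Other genes of the interferon pathway were read in the same set of 74 cells, with lists that hold no member. Of 35 further interferon-response genes with at least 50 UMIs, 20 were at least 2-fold higher and 0 at least 2-fold lower, where 8.62% of genes outside the members were 2-fold higher and 6.28% lower. IFI27, a small mitochondrial protein, stood at 268 against 16.9 CPM, or 15.9-fold. DHX58, the third RIG-I-like receptor, stood at 146 against 17.7 CPM, PLSCR1 at 29.8 against 3.83 CPM and ZBP1, a sensor of Z-form nucleic acid, at 76.1 against 17.6 CPM. The same list gave 18 genes at least 1.5-fold higher and 1 lower of 35 in CD4 CTL-like against naive-like cells, beside 28.4% and 18.2% of all genes, with LY6E, a surface gene, at 1572 against 142 CPM. IFITM1, which stood at 3259 CPM in the thinned T cells outside the set, was 1.40-fold higher in the set. Some of the 20 genes differed by class. APOBEC3G stood at 0.189 CPM in naive-like and 104 in CD4 CTL-like cells, ZBP1 at 0.566 and 48.5, and TRIM14 at 23.1 and 12.8. Naive-like cells made 15 of the 74 cells of the set and 4697 of the 7901 thinned T cells. The part of this mix of classes in the count of 20 was not tested.

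Among factors outside the members, STAT4, which carries signals of interleukin-12, was 2.10-fold higher, at 92.7 against 44.2 CPM. IRF1 was 1.82-fold higher, STAT3 was even at -0.02 (-0.68 to 0.57), and IRF2BP2, a corepressor, was lower at 16.5 against 47.2 CPM. Of 7 receptors and kinases 0 were at least 2-fold higher and 1, IFNGR2, was lower at 26.5 against 73.6 CPM, beside 8.62% and 6.28% of genes outside the members. With 7 genes these counts cannot be told apart from those shares. IL10RB at 0.59 (0.11 to 1.03) and JAK1 at 0.48 (0.17 to 0.78) were higher with intervals above 0. IFNGR1 stood at 0.34 (-0.53 to 1.10), IFNAR1 at -0.23 (-1.23 to 0.62), JAK2 at -0.33 (-1.78 to 0.80) and TYK2 at -0.63 (-2.26 to 0.60). IFNGR2 itself stood at 106 CPM in naive-like and 3.42 CPM in CD4 CTL-like cells. In these 2 classes STAT4 stood at 30.9 and 105 CPM, IRF1 at 264 and 636 CPM and IL10RB at 48.0 and 212 CPM. The classes made different shares of the set and of the other cells, and the part of this in these ratios was not tested.

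Of 8 negative regulators 1, SOCS3, was at least 2-fold higher, at 1.88 (-1.20 to 3.81) on 2 UMIs, and 0 were at least 2-fold lower. These counts were near the 8.62% and 6.28% of genes outside the members. SOCS1 stood at -0.59 (-2.22 to 0.64). Among the interferons, IFNG stood at 26.5 against 8.22 CPM on 8 UMIs in the set and at 40.4 CPM in CD4 CTL-like cells, IFNL1 had 40 UMIs in all kept cells and none in the set, and IFNB1, IFNA6, IFNE and IFNL4 had 0 UMIs in all kept cells. Of 14 genes that answer mainly to interferon-gamma or serve antigen processing, 7 were at least 2-fold higher and 0 lower, beside 8.62% and 6.28% of genes outside the members, and 1 of the 7, CD274, rested on 2 UMIs at 1.45 (-1.62 to 3.36). In CD4 CTL-like against naive-like cells 10 of 13 of that list were at least 1.5-fold higher and 0 lower, beside 28.4% and 18.2% of all genes. The part of the mix of classes in the 7 was not tested. GBP1, a guanylate-binding protein, stood at 179 against 44.9 CPM and APOL6 at 89.4 against 22.3 CPM, while the class I light chain B2M was 1.38-fold higher and NLRC5, the activator of class I genes, stood at -0.06 (-0.94 to 0.69).

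Outside all these lists the 3 named genes with the largest ratios in the set were FBXO6 at 6.26-fold, APOL2 at 5.38-fold and TMEM273 at 4.67-fold, followed by TNFAIP8L2 at 4.36-fold and ANTKMT at 4.19-fold. A gene with an identifier but no symbol, ENSMFAG00000002467, was highest at 15.1-fold, on 14 UMIs in the set. The 5 lowest were BEX3, TMEM25, EVA1C, CD1A and DNTT, of which DNTT, the enzyme that adds bases at joints of antigen receptor genes, stood at 6.62 against 39.4 CPM. Each of these 5 rested on 1 or 2 UMIs in the set. Naive-like cells made 15 of the 74 cells of the set and 4697 of the 7901 thinned T cells, and the part of this in these low values was not tested.

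The set was compared with the other thinned T cells in technical measures too. Median depth was 3564 against 3226 gene UMIs, the median mitochondrial share 3.35% against 3.59% the median doublet score of Scrublet 0.0569 against 0.0997 and the median CD8 tag 438 against 307 UMIs. Of the 74 cells 2 lay among the 6% of cells with the highest doublet scores. Of the monocyte markers 2 of 6 had a UMI in the set, with a sum of 13.2 CPM (3.61 to 33.9) against 2.62 (2.07 to 3.29), and LYZ, S100A8, S100A9 and CSF1R were at 0. Of the markers of plasmacytoid dendritic cells, which make much of the type I interferon in blood, 3 of 5 had a UMI, at 9.93 CPM (2.05 to 29.0) against 1.45 (1.05 to 1.96), with LILRA4 and CLEC4C at 0. Of 7 B cell markers 2 had a UMI, at 23.2 CPM (9.31 to 47.7) against 47.1 (44.6 to 49.6), with MS4A1 at 0, and all 5 platelet and 4 erythroid markers were at 0. Of 6 cycling markers 5 had a UMI, at 49.6 CPM (27.8 to 81.9) against 30.7 (28.7 to 32.8). What these markers contribute to the member levels was not tested. The 4 T cell genes summed to 3564 against 3309.8 CPM, and 98.6% of the set had a UMI of them.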

How the data were processed

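Gene and tag UMIs of 1 preparation of cells were measured. According to the submitters' processing notes and the study's methods, the authors used Cell Ranger 3.1.0 with STAR 2.5.1b on Macaca_fascicularis_5.0 and deposited whole-number UMI counts of each gene and tag in each barcode, without normalization and before their filter in Seurat 3.1.3. A UMI collapses copies made by PCR, but reads shared by related genes can be lost or split.

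Cells with 200 to 4000 genes and at most 20% of UMIs from 13 mitochondrial genes were kept, with 31677119 gene UMIs. Clustering used Seurat 5.3.0 in R 4.3.3 on 2000 variable genes other than the members, with 20 components, 20 neighbours and resolution 0.8, and clusters with both Treg and Tfh markers were divided at 0.5. A name needed 3 markers at 1.5 times the median over clusters. A cluster with a median depth under that of all cells divided by 3 stayed unnamed. Tags were gated with mixtures of 2 components on log10(UMIs + 1). Scrublet in scanpy 1.11.5 called 0 cells at its own threshold, so it has not worked as a caller, and no doublets were removed in the values reported.

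UMIs were summed per group, with exact Poisson intervals for levels, exact binomial intervals of the split for ratios and Clopper-Pearson intervals for shares. For a call of fold, 0 UMIs were replaced by a floor of 3. A count of 0 of n cells allows a share of 3 divided by n. Ratios of single genes needed 50 UMIs over both groups. Further tools were scikit-learn 1.9.0, scipy 1.17.1, numpy 2.4.6 and Python 3.11.15. The ratios with their intervals and the rule for the high-scoring set were tried on simulated counts. Clustering, naming, gating, thinning and the readings with members left out were not. No test between groups was made. The comparisons were each class with naive-like cells, CD8 with CD4 CTL-like cells, gates with CD4hiCD8lo, and the high-scoring set with other thinned T cells. Other filters, clusterings, gates, thresholds and thinnings were tried.

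All members, the pathway lists, the 3 members with the largest ratio each way in each comparison of classes or gates, and the 10 highest and 5 lowest genes of the set outside every list, seen in at least 10% of cells in whichever group was higher, were the genes to be named. Of those 10, only 1 of those without a symbol is named. The members, lists and rules were chosen with earlier results of these data known, and the naming and dividing rules were set after clusters had been seen. The counts over the list of signal transducers and factors, and 1 of its genes, are not reported here. No sequences or coordinates are given, since none were used here.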

Additional observations from a re-analysis of the deposited data

How the results depend on the processing

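Of 117 alternatives, 74 stayed within the counting interval of the value reported or within 1.5 times the count, 41 moved outside it in the same direction and 2 changed sign. The cause was not tested. Both were gates among naive-like cells, at -0.48 (-0.64 to -0.33) for CD4loCD8hi and at -0.02 (-0.09 to 0.05) for CD4hiCD8hi, which is no detectable difference. Without ISG20, the most abundant member, the level in all cells was 10.4 per 10000. The log2 ratios to naive-like cells were then 0.52 (helper-like), 0.29 (Treg-like), 1.09 (CD4 CTL-like), 0.83 (CD8 CTL-like) and 0.94 (innate-like). Those of the gates were 0.34 (CD4hiCD8hi) and 0.38 (CD4loCD8hi), and the share in the high-scoring set was 0.620%. The 2 lists of members were formed anew without ISG20, so every member placed after it changed lists. The new second list, in cells chosen by the new first list, gave a log2 ratio of 3.54. The original lists gave 2.37, and 3.61 for the reverse choice, so the effect of leaving out ISG20 cannot be read from the 3.54. Against naive-like cluster 1 alone, chosen after seeing the data, the ratios were 0.35 (helper-like), 0.29 (Treg-like), 0.84 (CD4 CTL-like), 0.60 (CD8 CTL-like), 0.66 (Eomes Tr1-like), 0.68 (innate-like) and 0.35 (B-like). Without the high-scoring set the level was 11.9, and the ratios 0.37 (helper-like) and 0.69 (Eomes Tr1-like). As a mean over cells the level was 12.0, with 0.34 (Treg-like) and 0.32 (CD4hiCD8hi).

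At most 10% mitochondrial UMIs gave 0.39 (helper-like) and 0.53 (Treg-like), resolution 0.4 gave 0.60 (helper-like) and 0.86 (CD4 CTL-like) and no value for CD8 CTL-like cells, which took no cluster there, and resolution 1.2 gave 0.36 (helper-like) and 0.50 (Treg-like). With 10 components the ratios were 0.48 (Treg-like), 0.62 (CD8 CTL-like) and 0.69 (Eomes Tr1-like), with members among the clustered genes 0.61 (helper-like), and without the 6% of cells with the highest Scrublet scores 0.83 (CD8 CTL-like). Tag thresholds 0.2 higher on the log10 scale gave 0.22 (CD4hiCD8hi). The share in the set was 2.05% at 4 and 0.645% at 6 scaled deviations, 0.613% without thinning and 0.620% with a threshold within each class, added after seeing the data. The original second list gave 2.13 at 4 deviations and 2.0 without thinning. A threshold within each class could not be set for these lists, since the deviation was 0 in naive-like cells.

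No paired analysis was possible because both libraries come from the same cells of 1 animal. Depth limits rare members: 8 had under 200 UMIs, and intervals leave out differences between animals.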
